A study of Mus musculus with 10 samples.

Results

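The 37 genes of the mouse mitochondrial genome were followed through 10 RNA-seq libraries of a mouse pancreatic cancer model. They were chosen as the genes of the expression table whose symbol starts with mt-, which gave 37 of 48516 genes: 13 protein-coding genes, 2 ribosomal RNA genes and 22 transfer RNA genes. All 37 identifiers matched GENCODE release M21. The 10 libraries came from FVB mouse cells labelled Ink4a. They fell into 5 liver metastasis libraries, numbered 25, 35, 36, 38 and 72, and 5 primary pancreatic tumour libraries with the same numbers. The series' design describes orthotopic injection of a single line, Ink4a.1, into the pancreas of mice of the model INK4.1syn_Luc, culture of liver metastases as cell lines, and growth of these and of the parental line to 90% confluence without treatment. It names 4 mice where the labels give 5 metastasis numbers, and whether the primary libraries are repeat cultures of the parental line is not stated. The spread behind each p-value may therefore be that of repeat cultures or preparations.

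Mitochondria keep their own small circular genome, which encodes core subunits of the respiratory chain complexes I, III and IV and of ATP synthase, together with the rRNAs and tRNAs that translate them. Both strands are transcribed into long RNAs that are cut mostly at the tRNAs lying between the other genes, so the mature RNAs of 1 strand start out in the same transcript and their levels come to differ through cleavage and decay. All other subunits of these complexes, all of complex II, and the machinery that copies, transcribes and translates the mitochondrial genome are encoded in the nucleus. Nuclear chromosomes also carry old insertions of mitochondrial DNA, and the mouse has a long one on chromosome 1 that is nearly the same as its source. Libraries were made after poly(A) selection, and mature mitochondrial tRNAs carry no such tail.

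Reads from the chromosome 1 insertion and from its source cannot be told apart where the bases are the same, so its sequence is shown first. In GENCODE M21 (GRCm38) it holds 7 pseudogenes on the minus strand between positions 24611535 and 24616197 of chromosome 1, a span of 4663 bases. They lie opposite mt-Co1 (Gm29216), mt-Co2 (Gm28661), mt-Atp6 (Gm10925), mt-Co3 (Gm28437), mt-Nd3 (Gm28438), mt-Nd4l (Gm10222) and mt-Nd4 (Gm28439). Over 4149 aligned bases the 7 pairs differed at 7, and 5 of the 7 pairs did not differ at all. The first 120 bases of mt-Co2 (chrM:7013-7132, plus strand) and of its copy Gm28661 (chr1:24615446-24615565, minus strand) are given as an identical pair. The same length of mt-Cytb (chrM:14145-14264, plus strand), which shared no 50-base stretch with an annotated nuclear transcript, is given beside them. All sequences are from GENCODE M21.
mt-Co2: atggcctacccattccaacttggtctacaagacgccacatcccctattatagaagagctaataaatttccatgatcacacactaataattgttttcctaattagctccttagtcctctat
Gm28661: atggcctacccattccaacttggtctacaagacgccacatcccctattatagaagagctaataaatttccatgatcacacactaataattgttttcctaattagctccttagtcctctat
mt-Cytb: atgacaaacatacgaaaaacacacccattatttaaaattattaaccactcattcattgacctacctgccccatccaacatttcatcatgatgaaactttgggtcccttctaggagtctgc

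Of the 5 mitochondrial genes that lie almost wholly in the insertion with an annotated copy, mt-Nd3 was the 1 whose aligned bases were not all the same as in the copy. The first 80 bases of mt-Nd3 (chrM:9459-9538, plus strand) and of Gm28438 (chr1:24613040-24613119, minus strand) differ by T3C, mt-Nd3 first, with positions counted from 1 at the start of mt-Nd3 and the base in question in capitals.
mt-Nd3: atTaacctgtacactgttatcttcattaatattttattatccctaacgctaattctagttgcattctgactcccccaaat
Gm28438: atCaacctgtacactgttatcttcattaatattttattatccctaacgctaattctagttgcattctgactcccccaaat

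Mitochondrial genes also overlap each other, and reads from an overlap belong to both. mt-Atp8 and mt-Atp6 share 43 bases, mt-Nd4l and mt-Nd4 share 7, and mt-Atp6 and mt-Co3 share 1. mt-Nd5 and mt-Nd6 share 14 bases but lie on opposite strands. mt-Nd6 is the only protein-coding gene on the minus strand, where 8 tRNA genes lie as well. No source used here says whether the counting used strand, so reads from the other strand over mt-Nd6 cannot be told apart from its own. The first overlap is printed because both genes in it were near 0, the second because its genes stood far apart in level, and the last because of the strands. The shared bases are in capitals, and all 3 stretches are read along the plus strand (chrM:7880-8016, chrM:10114-10226 and chrM:13506-13611).
mt-Atp8 into mt-Atp6: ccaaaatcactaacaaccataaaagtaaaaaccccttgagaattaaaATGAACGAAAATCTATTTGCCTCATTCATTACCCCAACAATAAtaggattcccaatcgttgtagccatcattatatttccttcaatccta
mt-Nd4l into mt-Nd4: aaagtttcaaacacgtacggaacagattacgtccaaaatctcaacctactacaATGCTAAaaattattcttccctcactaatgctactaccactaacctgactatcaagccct
mt-Nd5 into mt-Nd6: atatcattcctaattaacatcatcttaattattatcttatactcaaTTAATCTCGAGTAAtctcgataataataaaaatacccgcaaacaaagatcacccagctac

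The values are FPKM, fragments scaled by transcript length and by library, so gene length does not by itself set levels apart. Poly(A) selection, shared reads and the unknown use of strand still limit comparisons between genes. Depth, estimated from the steps between low values, was 15.7 M fragments in metastasis 25 and between 24.2 and 30.4 M in the other 9 libraries. These are the lowest depths that fit. A multiple of each fits the same steps, so the order of the libraries by depth is not settled. Metastasis 25 stood apart. Its FPKM values summed to 939415, against 563509 to 653161 in the other 9. Its 6 hepatocyte markers summed to 19101 FPKM, against 295 FPKM in metastasis 72 and 1599 FPKM in primary 72, and no further library passed 36.7 FPKM. Its 4 red cell markers summed to 28870 FPKM, with 863 FPKM in primary 25 and 630 FPKM in primary 72 as the next highest. The 8 leukocyte markers, all found in the table, summed to 2.33 to 3.26 FPKM in both groups of numbers 35 and 36, against 805 to 6119 FPKM in numbers 25, 38 and 72. Red cell markers divided the same way, with 0.38 to 0.95 FPKM in numbers 35 and 36 against 14.7 to 28870 FPKM in the others. So did the sum of pancreatic islet and acinar markers, with 1.40 to 4.00 FPKM against 8.33 to 6470 FPKM. The sum of fibroblast markers had 455 to 609 FPKM against 655 to 1331 FPKM, but not each gene behind it divided. Pdgfra and Dcn did. Col1a1 was lowest of all in metastasis 25, at 32.4 FPKM, against 149 to 170 FPKM in numbers 35 and 36. Col1a2 and Lum overlapped, as did the acinar marker Cela1. Skeletal muscle markers reached 6470 FPKM in metastasis 38, and pancreatic islet and acinar markers reached 6470 FPKM in primary 25. The 5 tumour epithelial markers summed to 86.0 to 606 FPKM in metastases and 267 to 713 FPKM in primaries, carried by the keratin genes Krt8, Krt18 and Krt19. In the 4 libraries of numbers 35 and 36, by contrast, the adhesion genes Epcam and Cdh1 were nearly absent, with Epcam at 0 in metastasis 36 and primary 35 and Cdh1 at most 0.29 FPKM. RNA of other cell types was thus present in libraries labelled as cultured lines. In such bulk samples fewer cells of a type and less RNA per cell cannot be told apart, and the part of other cells in the mitochondrial values was not tested.

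The protein-coding genes fell into a high and a low class with a wide gap between them. Of the 13, 7 (mt-Co1, mt-Cytb, mt-Nd1, mt-Nd2, mt-Nd4, mt-Nd5 and mt-Nd6) lay between 434 and 16107 FPKM in every library, apart from a single 0. The other 6 (mt-Co2, mt-Co3, mt-Atp6, mt-Atp8, mt-Nd3 and mt-Nd4l) never passed 50.9 FPKM.

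**Figure D1:**
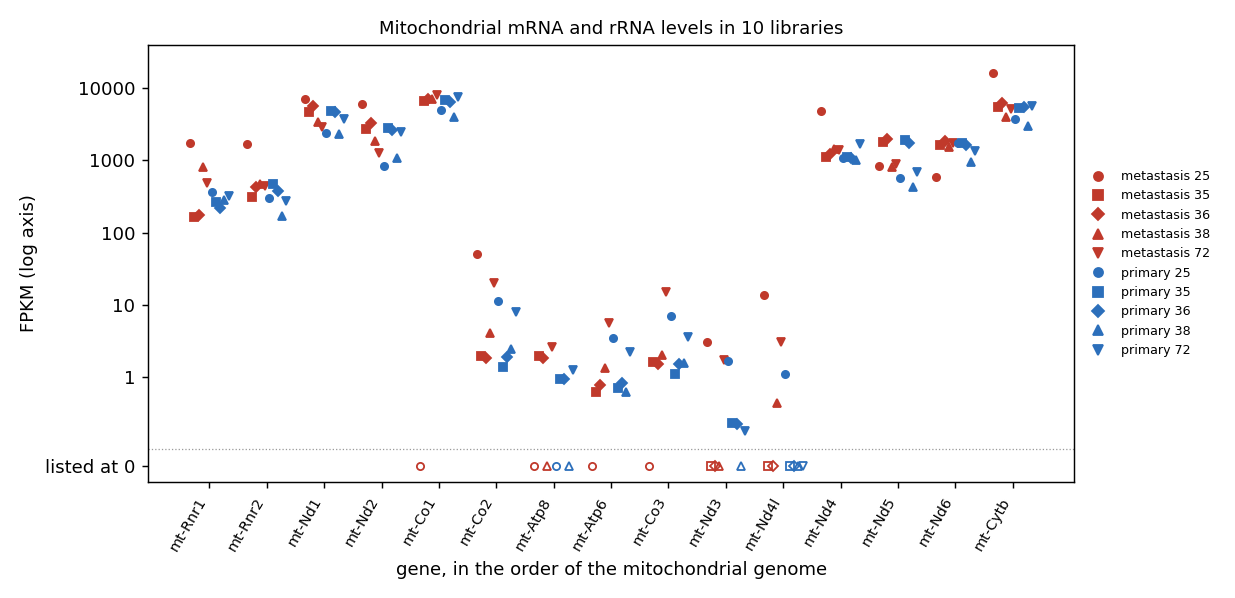
FPKM of the 13 protein-coding and 2 rRNA genes on a log axis, with each point a library, metastases left of primaries and zeros drawn at the foot. The 7 high mRNAs lie above 434 FPKM except for mt-Co1 in metastasis 25, and the 6 low ones lie below 51 FPKM.

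Complex IV reduces oxygen at the end of the chain, and mt-Co1, mt-Co2 and mt-Co3 encode its catalytic core. mt-Co1 had 0, 6598, 7024, 7028 and 8135 FPKM in metastases 25, 35, 36, 38 and 72, against 5058, 6941, 6509, 4001 and 7484 FPKM in primaries 25, 35, 36, 38 and 72. Its rank was between 1 and 4 among all genes in the 9 libraries other than metastasis 25, where it was listed at 0. Such isolated zeros occurred elsewhere in the table: 21 genes were at 0 in a single library and at 1 FPKM or more in each of the 9 others, 11 of them in metastasis 25. mt-Co2 was far lower, with 50.9, 1.97, 1.85, 4.14 and 20.1 FPKM in metastases in the same order of numbers, against 11.2, 1.39, 1.88, 2.48 and 8.04 FPKM in primaries. mt-Co3 had 0, 1.64, 1.54, 2.02 and 15.2 FPKM in metastases, against 7.08, 1.09, 1.51, 1.56 and 3.64 FPKM in primaries. In primary 72, for example, subunits of the same enzyme were listed at 7484, 8.04 and 3.64 FPKM. The groups overlapped for all 3 genes.

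Complex III passes electrons to cytochrome c, and mt-Cytb encodes its only mitochondrial subunit. mt-Cytb had 16107, 5516, 6144, 3958 and 5217 FPKM in metastases 25, 35, 36, 38 and 72, against 3690, 5311, 5422, 3034 and 5613 FPKM in primaries. Its rank among all genes was between 2 and 10 in the 10 libraries. Metastasis 25 was far above the rest, and the other 4 metastases lay within the range of the primaries except for metastasis 36.

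Complex I takes electrons from NADH, and the 7 mt-Nd genes encode its membrane arm subunits. mt-Nd1 had 7067, 4712, 5622, 3372 and 2918 FPKM in metastases 25, 35, 36, 38 and 72, against 2358, 4759, 4681, 2289 and 3789 FPKM in primaries. mt-Nd2 had 6061, 2684, 3314, 1835 and 1270 FPKM in metastases, against 845, 2828, 2636, 1084 and 2502 FPKM in primaries. Both were highest in metastasis 25 and lowest in primaries 25 and 38, and their groups overlapped. mt-Nd4 had 4798, 1126, 1219, 1456 and 1376 FPKM in metastases, against 1086, 1120, 1080, 999 and 1679 FPKM in primaries. Its 9 values without metastasis 25 spanned only 999 to 1679 FPKM, the narrowest relative range of the 7 high mRNAs in those libraries.

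mt-Nd5 and mt-Nd6 followed other orders. mt-Nd5 had 850, 1794, 1963, 823 and 901 FPKM in metastases 25, 35, 36, 38 and 72, against 569, 1895, 1725, 434 and 699 FPKM in primaries. All 4 libraries of numbers 35 and 36 were above all 6 others in both groups. mt-Nd6 had 595, 1644, 1838, 1512 and 1763 FPKM in metastases, against 1717, 1714, 1615, 961 and 1338 FPKM in primaries. It was lowest in metastasis 25, where mt-Cytb, mt-Nd1, mt-Nd2 and mt-Nd4 had their highest values. mt-Nd3 had 3.07, 0, 0, 0 and 1.72 FPKM in metastases, against 1.65, 0.23, 0.23, 0 and 0.18 FPKM in primaries. mt-Nd4l had 13.7, 0, 0, 0.45 and 3.08 FPKM in metastases, against 1.12 FPKM in primary 25 and 0 in the other 4 primaries. mt-Nd4l and mt-Nd4 are translated from a shared mRNA in mammals, and mt-Nd4 had at least 999 FPKM in each library.

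ATP synthase makes ATP from the proton gradient, and mt-Atp6 and mt-Atp8 encode parts of its membrane sector from overlapping frames. mt-Atp6 had 0, 0.63, 0.79, 1.33 and 5.67 FPKM in metastases 25, 35, 36, 38 and 72, against 3.45, 0.70, 0.83, 0.62 and 2.20 FPKM in primaries. mt-Atp8 had 0, 1.95, 1.83, 0 and 2.65 FPKM in metastases, against 0, 0.94, 0.95, 0 and 1.24 FPKM in primaries. It was listed at 0 in both libraries of numbers 25 and 38 and above 0 in both libraries of numbers 35, 36 and 72. Counted over the 13 protein-coding genes, the exact zeros numbered 4, 2, 2, 2 and 0 in metastases 25, 35, 36, 38 and 72, against 1, 1, 1, 3 and 1 in primaries. The 0 of mt-Co1 lay far below its other values, and the remaining zeros were in genes of the low class. Whether any of these zeros are failed estimates was not tested.

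Of the 6 low genes, 5 had near-identical annotated copies in the nucleus. None of the 7 high genes was matched over its whole length by annotated nuclear transcripts. Unannotated copies were not looked for, and copies with many mismatches would be missed. For each gene, the share of its 50-base windows found without a mismatch in a nuclear transcript of GENCODE M21 was computed, and these shares were set beside the levels. It was 100% for mt-Co2, 99.9% for mt-Co3, 99.5% for mt-Atp6, 98.8% for mt-Nd4l and 98.0% for mt-Nd3, all of which were at 0 to 50.9 FPKM. It was 62.2% for mt-Nd4, 51.1% for mt-Co1, 8.19% for mt-Nd2, 7.61% for mt-Nd5 and 0% for mt-Nd1, mt-Nd6 and mt-Cytb, the 7 genes with 434 FPKM and more outside their single 0. mt-Atp8 was the exception, low with a share of 0%. Its bases lie opposite positions 24614609 to 24614812 of chromosome 1. The 43 bases that it shares with mt-Atp6 fall at the edge of Gm10925, and the rest fall in the gap of 233 bases between Gm10925 and Gm28661, whose sequence was not used here. No source used here says how reads shared by a gene and its copy were assigned, so the levels of these 6 genes, and in part those of mt-Nd4 and mt-Co1, are uncertain.

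**Figure D2:**
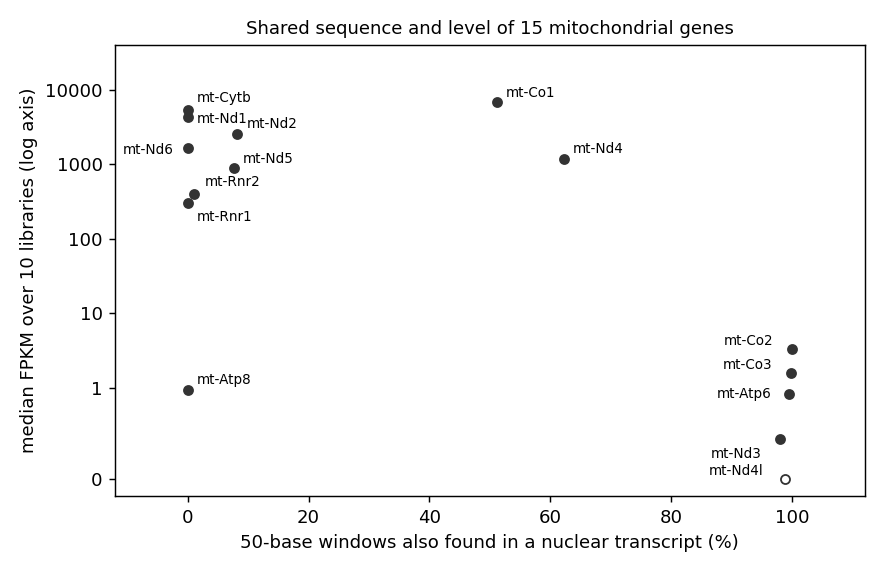
Median FPKM over the 10 libraries (log axis, with a median of 0 drawn at the foot) against the percentage of a gene's 50-base windows found in a nuclear transcript, for the 13 protein-coding and 2 rRNA genes. The 5 genes with over 90% shared lie low, the 7 high mRNAs have at most 62.2% shared, and mt-Atp8 lies low with 0%.

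The 7 copies themselves were listed at 0 to 124 FPKM. Gm28661, the copy of mt-Co2, had 68.8, 1.58, 1.72, 2.71 and 30.4 FPKM in metastases 25, 35, 36, 38 and 72, against 16.8, 2.10, 1.82, 1.38 and 3.27 FPKM in primaries. Gm28437, the copy of mt-Co3, had 121, 1.12, 1.25, 1.92 and 16.8 FPKM in metastases, against 8.78, 0.90, 0.94, 1.04 and 3.7 FPKM in primaries. Gm10925, the copy of mt-Atp6, had 124, 0.40, 0.43, 0.24 and 20.3 FPKM in metastases, against 9.88, 0.47, 0.61, 0.90 and 0.94 FPKM in primaries. Metastasis 25, metastasis 72 and primary 25 were the 3 highest libraries for these 3 copies, as they were for mt-Co2. In metastasis 25, mt-Co3 and mt-Atp6 were listed at 0 while their copies stood at 121 and 124 FPKM. Gm29216, the partial copy of mt-Co1, had 115 FPKM there, against at most 28.5 FPKM in the other 9 libraries.

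**Figure D3:**
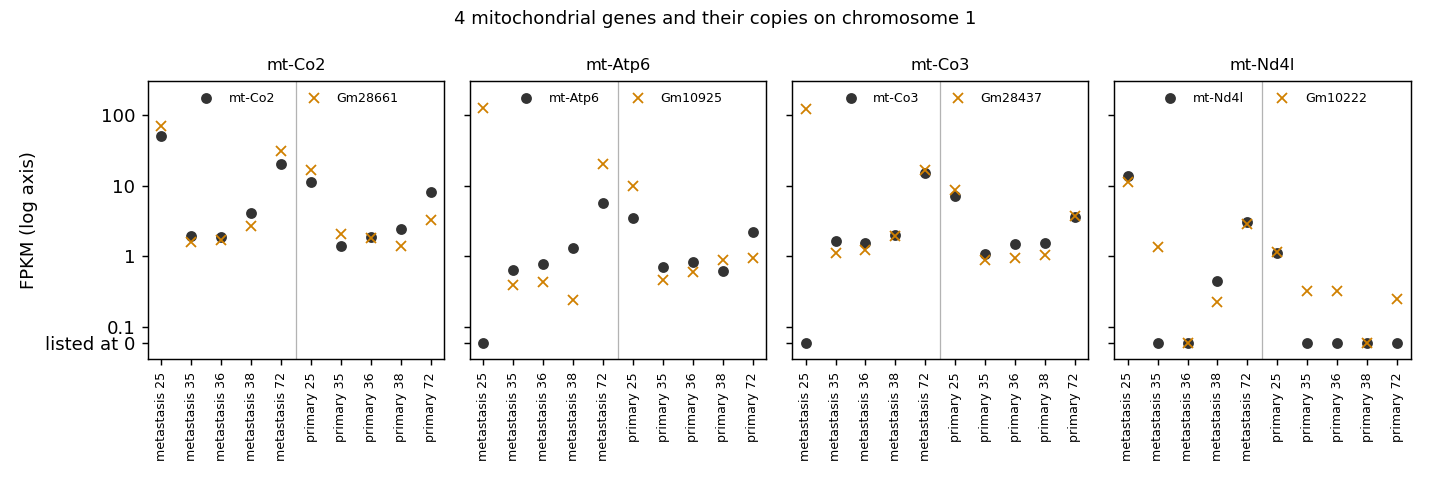
FPKM in each library (log axis, zeros at the foot) of 4 mitochondrial genes (dots) and of their chromosome 1 copies (crosses), metastases left of primaries. Gene and copy were highest in metastasis 25, metastasis 72 and primary 25 for mt-Co2, while mt-Co3 and mt-Atp6 were listed at 0 in metastasis 25.

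Both ribosomal RNAs were present, below all 7 high mRNAs in the 9 libraries other than metastasis 25. mt-Rnr1, the RNA of the small mitochondrial ribosomal subunit, had 1723, 166, 177, 799 and 479 FPKM in metastases 25, 35, 36, 38 and 72, against 371, 262, 219, 284 and 321 FPKM in primaries. mt-Rnr2, the RNA of the large subunit, had 1671, 311, 425, 478 and 445 FPKM in metastases, against 298, 472, 381, 172 and 278 FPKM in primaries. Metastasis 25 was highest for both and the groups overlapped for both. The rRNAs carry short tails at most, so their level after poly(A) selection is not their level in the cell. Of the summed mRNA and rRNA values the rRNAs made up 8.72%, 1.94%, 2.17%, 6.01% and 4.10% in metastases, against 4.18%, 2.90%, 2.47%, 3.44% and 2.52% in primaries.

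The 22 transfer RNA genes, 59 to 75 bases long, were listed at 0 in all 10 libraries, which makes 220 zeros. Several share a locus of the table with an mRNA, such as mt-Ts1 with mt-Co1 and mt-Ti and mt-Tq with mt-Nd1, and those mRNAs were high. The zeros therefore give no measure of tRNA levels.

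Of 7 ratios computed between mitochondrial genes, 5 had all libraries of numbers 35 and 36 apart from all others with a value. The gap was very narrow for mt-Cytb to mt-Nd1, at 1.0929 to 1.1706 in numbers 35 and 36 against 1.1739 to 2.2792. It was narrow for mt-Cytb to mt-Co1 too, at 0.765 to 0.875 against 0.563 to 0.758. Neither ratio to mt-Co1 had a value in metastasis 25. The ratios reuse the same genes, and how often ratios of other genes divide this way was not computed. The ratio of mt-Nd4 to mt-Nd5 was 0.59 to 0.63 in the 4 libraries of numbers 35 and 36, against 1.53 to 5.64 in the 6 of numbers 25, 38 and 72. The ratio of mt-Rnr1 to mt-Rnr2 was 0.42 to 0.58 in numbers 35 and 36, against 1.03 to 1.67 in the others. The ratio of mt-Nd1 to mt-Co1 was 0.69 to 0.80 in numbers 35 and 36, against 0.36 to 0.57 in the others, without metastasis 25, where mt-Co1 was at 0. For mt-Nd6 to mt-Nd5 it was 0.90 to 0.94 in numbers 35 and 36, against 1.84 to 3.02 in the others and 0.70 in metastasis 25, so it did not divide fully. The ratio of mt-Nd2 to mt-Nd1 did not divide by number: it was 0.56 to 0.59 in numbers 35 and 36, inside the 0.36 to 0.86 of the others. Between the groups these ratios overlapped widely: mt-Nd4 to mt-Nd5 averaged 2.04 ± 2.08 in metastases and 1.57 ± 0.89 in primaries (SD, n = 5 each), and mt-Rnr1 to mt-Rnr2 averaged 0.95 ± 0.50 in metastases and 1.04 ± 0.47 in primaries (SD, n = 5 each). The division by number was chosen after the values were seen. It is also the division by the summed leukocyte, red cell, islet and acinar, and fibroblast markers given above, not all of which divided gene by gene. The part of that RNA in the ratios was not tested.

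**Figure D4:**
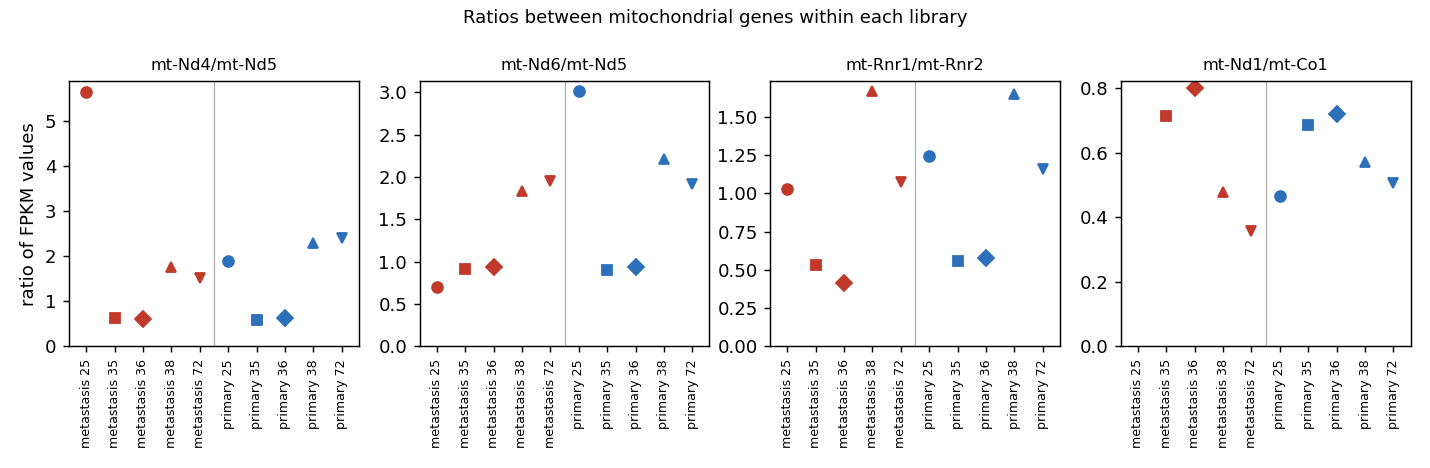
Ratios between the FPKM of pairs of mitochondrial genes in each library on linear axes from 0, metastases left of primaries. The libraries of numbers 35 and 36 lie close together for each ratio, at 0.59 to 0.63 for mt-Nd4 to mt-Nd5 and 0.42 to 0.58 for mt-Rnr1 to mt-Rnr2.

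Such a division was common in the whole table. Among the 13152 genes that reached 1 FPKM in 5 or more libraries, 24.0% had all 4 libraries of numbers 35 and 36 above all 6 others, and 19.9% had them below. Of the 11 mitochondrial genes past that minimum, mt-Nd5 was above in this sense, and mt-Rnr1 and mt-Co2 were below. These shares are no higher than those of all genes, so the mitochondrial genes did not stand out by their division in single levels.

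The central comparison of the study, metastasis against primary, gave no mitochondrial gene past the threshold. It was fitted with limma on log2(FPKM + 1) over the 13152 genes, on which scale the change of low genes is understated. At an adjusted p under 0.05 (Benjamini-Hochberg) limma called 0 of the 11 mitochondrial genes, against 0% of all genes, and 31 genes had an unadjusted p under 0.05, of which 8 were higher and 23 lower in metastases. All 11 mitochondrial genes had an adjusted p of 0.9998 with limma. The 26 others were not tested in this fit: 4 mRNAs (mt-Atp6, mt-Atp8, mt-Nd3 and mt-Nd4l) and 22 tRNAs were under the minimum. A fit without the minimum gave the 4 mRNAs a log2 difference, metastasis minus primary, with no call. It was 1.07 (SE 0.71) for mt-Nd4l, 0.37 (SE 0.45) for mt-Atp8, 0.25 (SE 0.46) for mt-Nd3 and -0.13 (SE 0.53) for mt-Atp6.

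The smallest unadjusted p of the 11 was that of mt-Rnr2, at 0.0876 in limma with 5 libraries a group. Its log2 difference, metastasis minus primary, was 0.84 (SE 0.44). By number the difference was 2.48, -0.60, 0.16, 1.47 and 0.68 for 25, 35, 36, 38 and 72, so 4 of the 5 metastases were above their primary. For mt-Rnr1 the log2 difference was 0.66 (SE 0.59), and by number it was 2.21, -0.65, -0.30, 1.49 and 0.58. Both rRNAs were lower in metastasis 35 than in primary 35, and higher in the metastases of numbers 25, 38 and 72 than in their primaries. Within numbers 35 and 36 alone the log2 differences were -0.22 for mt-Rnr2 and -0.48 for mt-Rnr1, and within numbers 25, 38 and 72 they were 1.54 for mt-Rnr2 and 1.43 for mt-Rnr1, with no call in either. Without metastasis 25 they were 0.43 for mt-Rnr2 and 0.18 for mt-Rnr1.

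None of the 7 high mRNAs passed the limma threshold either, in a design of 5 libraries a group. The log2 differences were 0.53 (SE 0.39) for mt-Cytb, 0.58 (SE 0.49) for mt-Nd2, 0.52 (SE 0.39) for mt-Nd4, 0.40 (SE 0.34) for mt-Nd1, 0.39 (SE 0.47) for mt-Nd5 and -0.07 (SE 0.34) for mt-Nd6. Number 25 gave the widest differences between a metastasis and its primary for 5 of these 6 genes: 2.84 for mt-Nd2, 2.14 for mt-Nd4, 2.13 for mt-Cytb, 1.58 for mt-Nd1 and -1.53 for mt-Nd6. For mt-Nd5 the widest was 0.92, in number 38. In number 35, by contrast, the same 6 genes differed by -0.08 to 0.05. Without metastasis 25 the group differences were 0.20 for mt-Cytb, 0.27 for mt-Nd2, 0.14 for mt-Nd4, 0.24 for mt-Nd1, 0.51 for mt-Nd5 and 0.23 for mt-Nd6. mt-Co1 had a log2 difference of -2.27 (SE 2.24) that came from its 0 in metastasis 25, and of 0.29 with that value taken as missing. mt-Co2, with 0.83 (SE 0.85), and mt-Co3, with -0.12 (SE 0.67), were the 2 genes past the minimum with over 90% of their windows shared. Fitted with the tumour number as a block, limma called no gene either, and its smallest unadjusted p among the 11, for mt-Co2, was 0.0362.

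**Figure D5:**
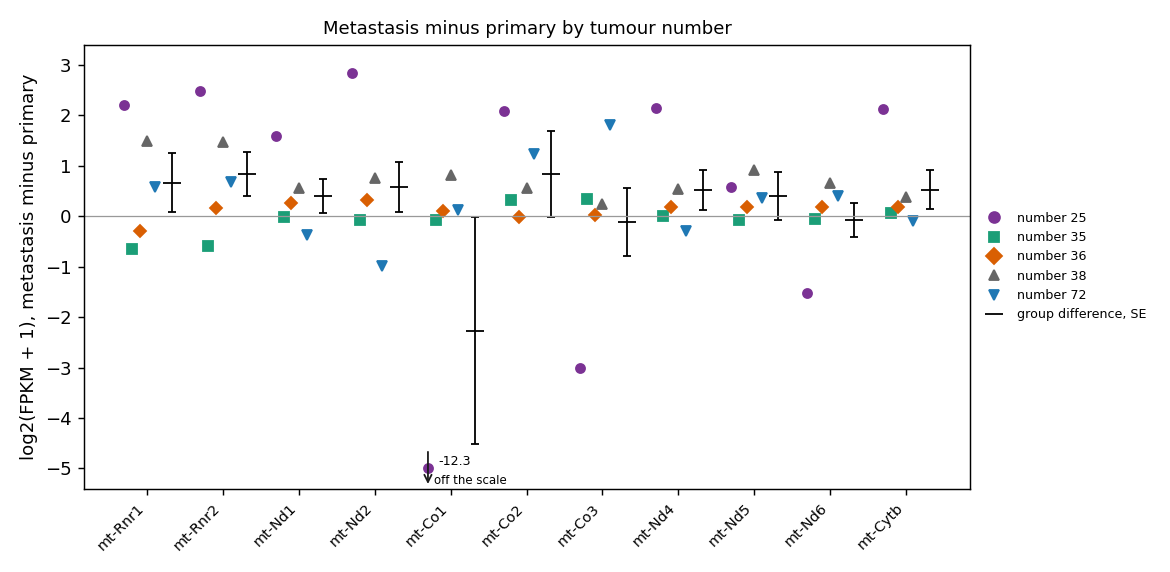
Difference in log2(FPKM + 1), metastasis minus primary, for each tumour number and each of the 11 tested mitochondrial genes, with the limma estimate and its SE as a bar beside the points. Number 25 lies farthest from 0 for most genes, and its value of -12.3 for mt-Co1, where metastasis 25 was listed at 0, is off the scale and marked by an arrow at the foot.

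Summed over the 13 protein-coding genes, mitochondrial mRNA came to 35547, 24079, 27130, 19990 and 21628 FPKM in metastases 25, 35, 36, 38 and 72, against 15347, 24573, 23674, 12806 and 23121 FPKM in primaries. The means were 25675 ± 6140 FPKM in metastases and 19904 ± 5420 FPKM in primaries (SD, n = 5 each), and the groups overlapped. The log2 ratio of these means was 0.37, and it was 0.22 without metastasis 25, 0.24 without primary 38, 0.086 within numbers 35 and 36 and 0.59 within numbers 25, 38 and 72. As a share of the FPKM of all genes, the 13 mRNAs made up 3.73% ± 0.30 in metastases and 3.22% ± 0.78 in primaries (SD, n = 5 each). The share of metastasis 25 was 3.78%, inside the range of 3.33% to 4.15% of the other 4 metastases, but with mt-Co1 at 0. Without mt-Co1 in any library, its share was 3.78%, above the 2.16% to 3.08% of the other 4 metastases and the 1.56% to 2.85% of the primaries. Primaries 25 and 38, at 2.49% and 2.27%, were the lowest, and the other 3 primaries had 3.59% to 3.97%. Of the 9 mRNAs tested, 6 had a log2 difference above 0, with a median of 0.40, against 51.4% above 0 and a median of 0.0075 over all genes tested. Scaling to the sum of the genes outside the mitochondrial genome moved the median of all genes to -0.10 and that of the 9 mRNAs to 0.27.

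The nuclear partners of the mitochondrial genes were read from 10 lists with 89 genes, of which 87 were tested. limma called 0 of the 87 in either direction, and 62 had a log2 difference above 0 (71.3%), with a median of 0.12, against 51.4% and 0.0075 over all genes tested. Scaled to the sum of the genes outside the mitochondrial genome, which lowers nearly all differences, 42 of the 87 were above 0 (48.3%), with a median of -0.0076. Over all genes tested, 30.9% were above 0 under that scaling, with a median of -0.10. For complex I subunits 6 of 7 were above 0 with a median of 0.18, and Ndufs3, a core subunit of the matrix arm, had 0.41 (SE 0.28). For complex II 3 of 4 were above 0 with a median of 0.23, and its anchor subunit Sdhd had 0.29 (SE 0.25). For complex III 6 of 7 were above 0 (median 0.19), for complex IV 7 of 10 (median 0.10) and for ATP synthase 6 of 8 (median 0.13), where the gamma subunit Atp5c1 had 0.46 (SE 0.33). The medians of these 5 lists stayed above 0 under that other scaling at 0.05 for complex I, 0.10 for complex II, 0.07 for complex III and 0.0044 for ATP synthase, and turned to -0.03 for complex IV.

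The genes that run the mitochondrial genome were as little separated between the groups. For its transcription, 5 of 10 genes were above 0 with a median of -0.0041 (-0.12 under the other scaling). For its replication 7 of 10 were above 0 (median 0.07, and -0.05 under the other scaling). For RNA processing and decay it was 13 of 17 (median 0.13). Under the other scaling 9 of these 17 were above 0 (52.9%, median 0.0079), beside 30.9% of all genes. For translation factors it was 6 of 10 (median 0.03, and -0.08 under the other scaling). Of the 6 regulators of mitochondrial biogenesis, Ppargc1a and Ppargc1b were under the minimum, and 3 of the other 4 were above 0 (median 0.09, and -0.03 under the other scaling), among them Esrra, a nuclear receptor that acts with Ppargc1a, with 0.31 (SE 0.25).

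Some of these genes divided by number, and the following were chosen after their values were seen. Over the 87 genes, 28 had all libraries of numbers 35 and 36 above all others and 7 had them below, beside 24.0% and 19.9% of all genes. In the list of RNA processing and decay, 9 of 17 were above and 1 was below. Lrpprc, which binds and stabilises mitochondrial mRNAs, had 8.18, 30.3, 29.5, 5.56 and 11.1 FPKM in metastases 25, 35, 36, 38 and 72, against 12.2, 27.4, 23.8, 5.61 and 7.78 FPKM in primaries. Its partner Slirp ran the other way, with 95.1, 23.0, 18.1, 32.8 and 47.2 FPKM in metastases, against 62.4, 19.5, 22.4, 27.9 and 37.8 FPKM in primaries. Tfam, which packages the mitochondrial genome and starts its transcription, had 22.7, 30.5, 32.5, 18.2 and 14.2 FPKM in metastases, against 15.8, 29.4, 29.7, 19.6 and 14.5 FPKM in primaries. Lrpprc and Tfam were thus high in the same 4 libraries as mt-Nd5. The summed leukocyte, red cell, islet and acinar, and fibroblast markers were lowest in these 4, and the part of that RNA was not tested.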

How the data were processed

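Per the labels' protocols, the 10 libraries were made from cultured cells after poly(A) selection. The values used are those of 1 FPKM table deposited by the authors. Salmon, edgeR and mm8 are named in the submitters' processing notes with no role, and how FPKM was computed is not stated there. All 37 members matched GENCODE M21 (GRCm38), whose coordinates and transcript sequences are used, and 35 lines without an identifier were left out. Depth was estimated from the steps between low values in genes of at least 3000 bases, as the lowest depth that fitted well.

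Groups and numbers came from the cell type label. limma 3.58.1 (R 4.3.3) with an intensity trend was run on log2(FPKM + 1) of genes reaching 1 FPKM in 5 or more libraries, without a block. The fit was also tried on simulated data, whose spread was capped below that of the tested mitochondrial genes. That trial does not show which changes the fit could find in these libraries. Deviations from the group means correlated at 0.39, 0.86, 0.89, 0.68 and 0.23 within numbers 25, 35, 36, 38 and 72. The numbers were read as pairs from the shared label and these values. Correlations between different numbers were not compared, so these values do not by themselves show pairing. Named were all protein-coding and rRNA members and, of each nuclear list, up to 4 genes with the smallest p, and Lrpprc, Slirp and Tfam were added after their values were seen. Twnk and Prorp were found under older symbols. The members and lists were chosen with earlier results of these data known. Other scalings, pseudocounts, minimums, subsets of numbers, a replicate block and leaving out each library were tried.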

Additional observations from a re-analysis of the deposited data

Results flagged for a closer look

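Of 32 sets of 5 libraries in 1 group, 11 had a highest or lowest value whose gap to the nearest other library was over 0.71 of the whole range. For independent and normally distributed values, chance flags about 1 in 20. These sets were FPKM of genes from the same libraries, some of them near 0, so the 11 cannot be read against that rate. For mt-Nd4l in primaries, 4 of the 5 values were 0, which fixed the flag. Of the 11 flags, 6 were metastasis 25. In that library mt-Co1 was at 0 and mt-Nd6 at 595 FPKM, the lowest of the metastases, with the next at 6598 FPKM for mt-Co1 and 1512 FPKM for mt-Nd6. mt-Cytb at 16107 FPKM, mt-Nd4 at 4798 FPKM, mt-Rnr2 at 1671 FPKM and mt-Nd4l at 13.7 FPKM were the highest of the metastases there. The next metastasis had 6144 FPKM for mt-Cytb, 1456 FPKM for mt-Nd4, 478 FPKM for mt-Rnr2 and 3.08 FPKM for mt-Nd4l. In metastasis 72, mt-Co3 at 15.2 FPKM and mt-Atp6 at 5.67 FPKM stood above the next metastasis, with 2.02 FPKM for mt-Co3 and 1.33 FPKM for mt-Atp6. In primary 25, mt-Nd3 at 1.65 FPKM and mt-Nd4l at 1.12 FPKM stood above the next primary, with 0.23 FPKM for mt-Nd3 and 0 for mt-Nd4l. In primary 72, mt-Nd4 at 1679 FPKM stood above the next primary, with 1120 FPKM. Nearly all of the sequence of mt-Co3, mt-Atp6, mt-Nd3 and mt-Nd4l, as of mt-Co2, which had no such value, is found in nuclear transcripts.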

How the results depend on the processing

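limma called 0 genes at an adjusted p under 0.05 under each of the 20 settings tried for that count, with 208 genes at an unadjusted p under 0.05 in the fit with the replicate block, whose smallest adjusted p was 0.999. Of 220 single-gene values under other settings, 206 stayed on the same side of 0, 14 did not, and 0 were called. Many of the 206 could not change side. The replicate block, the fit without an intensity trend and the fit without an expression minimum leave each log2 difference as it was. With single zeros as missing, only mt-Co1 and mt-Co3 could change. Within numbers 35 and 36 alone the log2 difference, metastasis minus primary, was 0.018 for mt-Co1, 0.063 for mt-Nd6, 0.18 for mt-Co3, -0.22 for mt-Rnr2 and -0.48 for mt-Rnr1. With single zeros as missing it was 0.29 for mt-Co1 and 0.29 for mt-Co3. With both libraries of number 25 left out, a setting chosen after seeing the data, it was 0.24 for mt-Co1, 0.29 for mt-Nd6 and 0.60 for mt-Co3. Leaving out each library in turn gave -2.95 to 0.29 for mt-Co1, -0.21 to 0.23 for mt-Nd6 and -0.71 to 0.29 for mt-Co3. The sum of the 13 mRNAs had a log2 ratio of 0.22 when scaled to the genes outside the mitochondrial genome, 0.14 without number 25 and 0.52 without mt-Co1. For that sum leaving out each library gave log2 ratios of 0.22 to 0.45, and for the median of the 9 tested mRNAs 0.24 to 0.52, both lowest without metastasis 25. The median was 0.12 within numbers 35 and 36, 0.62 within numbers 25, 38 and 72, 0.26 without primary 38 and 0.27 without primary 25. Apart from the zeros as missing, the cause of these changes was not tested. The transfer RNAs, at 0 throughout, gave no value under any setting, and 5 libraries a group limit the precision.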
